A study of Homo sapiens with 6 samples.

Results

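The aldehyde dehydrogenases measured here are 10 human genes, ALDH1A1, ALDH1A2, ALDH1A3, ALDH1B1, ALDH2, ALDH3A1, ALDH3A2, ALDH4A1, ALDH7A1 and ALDH18A1, chosen by symbol from a table of 57133 gene symbols. All 10 had a row in the table, and 9 had enough reads to be tested. They were read in T98G, a human glioblastoma cell line, in which the gene for CBX8 had been knocked out with CRISPR. CBX8 is a chromodomain subunit of Polycomb repressive complex 1 and binds methylated lysine 27 of histone H3. The comparison asks which transcripts change when CBX8 is put back into cells that lack it.

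Both groups were made from the CBX8 knockout line. The CBX8 KO group (3 libraries) carried the empty doxycycline-inducible lentiviral vector TetO-FUW, and the WT CBX8 re-expression group (3 libraries) carried the same vector with V5-tagged wild-type CBX8. All 6 cultures received doxycycline at 1 µg/ml for 72 hours, so the drug does not distinguish the groups. The genotype label of the re-expression samples reads "wild type", whereas their titles and the study's methods place the construct in the knockout line. Each group is a separately infected and selected stable line, so the effect of CBX8 and any other difference between these lines cannot be told apart. No unedited T98G library was analysed here. The labels do not say whether replicates came from separate cultures, so p-values measure the spread between these libraries, which may be technical.

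Most aldehyde dehydrogenases use NAD+ or NADP+ to oxidise reactive aldehydes to carboxylic acids. The ALDH1A enzymes convert retinal to retinoic acid, the ligand of the nuclear receptors RARA, RARB and RARG, and their activity is read by the ALDEFLUOR assay that is used to sort stem-like tumour cells. In glioblastoma, ALDH1A3 is known as a marker of the mesenchymal type of stem-like cells. Other members handle acetaldehyde (ALDH2, ALDH1B1), aromatic and fatty aldehydes (ALDH3A1, ALDH3A2), or intermediates of proline and lysine metabolism (ALDH4A1, ALDH18A1, ALDH7A1).

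The members belong to the same gene family but differ in sequence, which matters for telling their reads apart. The stretches shown here surround the codon of the catalytic cysteine, in capitals, in the members whose change or closest relatives are described first. They are reference sequence (GENCODE 44 canonical transcripts, hg38 coordinates, coding strand, all within 1 coding exon).
ALDH1A3 (chr15:100900610-100900654, plus strand, exon 9): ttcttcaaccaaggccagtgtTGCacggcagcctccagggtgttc
ALDH1A1 (chr9:72917025-72917069, minus strand, exon 9): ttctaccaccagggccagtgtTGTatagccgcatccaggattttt
ALDH1A2 (chr15:57963990-57964034, minus strand, exon 9): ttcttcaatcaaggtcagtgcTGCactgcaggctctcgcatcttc
ALDH2 (chr12:111792633-111792677, plus strand, exon 9): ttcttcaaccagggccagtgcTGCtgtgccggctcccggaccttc
ALDH1B1 (chr9:38396682-38396726, plus strand, exon 2): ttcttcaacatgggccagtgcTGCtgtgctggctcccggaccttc
ALDH3A1 (chr17:19741147-19741191, minus strand, exon 6): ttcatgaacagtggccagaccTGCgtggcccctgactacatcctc
ALDH3A2 (chr17:19657764-19657808, plus strand, exon 5): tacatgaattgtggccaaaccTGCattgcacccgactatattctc
Over these 45 bases, ALDH1A3 matched ALDH1A2 at 35 positions, ALDH1A1 and ALDH2 at 34 each, and ALDH3A1 at 24. The codon was located by translating each coding sequence and searching for glycine, then glutamine or glutamate, any residue and cysteine. This pattern was found once in 17 of the 19 human aldehyde dehydrogenases and not in ALDH18A1 or ALDH16A1. Over the whole protein, ALDH1A3 was 70.3% identical to ALDH1A1 and 70.1% to ALDH1A2, ALDH1B1 was 75.0% identical to ALDH2, and ALDH3A1 was 66.0% identical to ALDH3A2. ALDH4A1, ALDH7A1 and ALDH18A1 were less alike, at 30.1%, 32.1% and 30.5% identity to ALDH1A3. No window of 100 bases, the read length, was shared between 2 members, so paralogous members can be told apart by reads of this length.

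Total counts per library lay between 7950190 and 8659796, and the norm factors of the scaling between 0.97 and 1.03. CBX8 itself was counted 96, 104 and 83 times in CBX8 KO and 30372, 31408 and 27791 times in WT CBX8 re-expression, a 297-fold difference in the direction of the titles. An edited CBX8 transcript can still be counted, so these reads do not measure the protein. In WT CBX8 re-expression, CBX8 made up 0.334% to 0.368% of all counts. With no unedited T98G library analysed, whether this exceeds the level of unedited cells cannot be told. Of 14461 genes tested, 901 were higher and 959 lower with CBX8, and 593 and 635 without re-expression replicate 2. Of the calls, 48.4% were higher, and 70.3% when libraries were scaled by their size only, which moved the median of all genes from 0.005 to 0.06 on the log2 scale. Of the 8 glioblastoma and mesenchymal markers, VIM had 21563 to 24449 counts per library and CD44 20126 to 24273, whereas CHI3L1 had 1 to 10 and NES 0 to 4. Of the 6 tested, TNC and FN1 were called higher (log2 fold changes 1.39 and 0.22) and CD44 lower (-0.21). Of the 8 markers of the astrocyte and oligodendrocyte lineage, S100B, SOX2 and AQP4 were at 0, GFAP had 13 to 30 counts and OLIG2 14 to 38, and SOX9 had 625 to 772 and was called lower (log2 fold change -0.27, adjusted p = 0.00386). No gene of the blood and endothelium or the epithelium list had more than 6 counts in a library. Of the 4 neuron markers, STMN2 was at 0, RBFOX3 had at most 1 count, and SYT1 and SNAP25 had up to 35 and 109 counts, with neither called. The mitochondrial share of counts was 6.85% to 7.96% in CBX8 KO and 5.96% to 6.99% in WT CBX8 re-expression. The part of these differences in the results was not tested.

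With CBX8 re-expressed, 1 member rose (ALDH1A3) and 3 fell (ALDH1A1, ALDH3A1 and ALDH3A2), while ALDH1B1, ALDH2, ALDH4A1, ALDH7A1 and ALDH18A1 were not called. The calls come from edgeR's quasi-likelihood test over all 14461 genes, with Benjamini-Hochberg adjusted p under 0.05. Over all genes, 12.9% were called, 6.23% as higher and 6.63% as lower, against 4 of the 9 members tested, 1 higher and 3 lower. The median log2 fold change of the 9 was -0.11, against 0.005 over all genes. In 5 of the 9, the libraries of the groups did not overlap, against 28.9% of all genes. The 4 calls held in all 18 alternatives to the processing. In bulk RNA, fewer cells expressing a gene and less of its RNA per cell cannot be told apart.

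**Figure D1:**
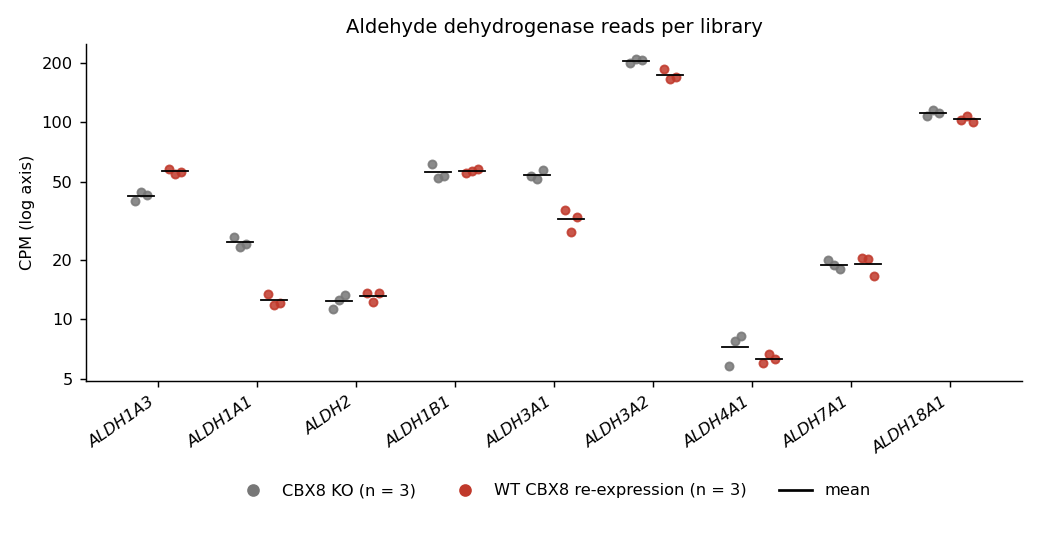
CPM (normalised read count, log axis) of the 9 tested aldehyde dehydrogenases in each library, with CBX8 KO in grey and WT CBX8 re-expression in red (n = 3 each) and bars at the mean. ALDH1A3 is higher in every re-expression library, and ALDH1A1, ALDH3A1 and ALDH3A2 are lower in every one.

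ALDH1A3 (ENSG00000184254, chr15:100877714-100916626, plus strand, 13 exons in the canonical transcript) was counted 315, 371 and 333 times in CBX8 KO and 494, 481 and 470 times in WT CBX8 re-expression. As CPM (counts scaled to library size by TMM), these were 39.8, 44.1 and 42.6 against 58.1, 54.9 and 56.0. Every re-expression library lay above every knockout library. The mean rose from 42.2 ± 2.20 to 56.3 ± 1.59 CPM (SD, n = 3 each), a 1.34-fold increase (95% interval 1.21 to 1.48). The log2 fold change was 0.42 (SE 0.071, adjusted p = 0.000152), and across the alternatives it lay between 0.38 and 0.47 with adjusted p from 2.75e-06 to 0.00287. Of all genes tested, 1011 had a larger rise.

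An overlapping antisense gene limits how the ALDH1A3 reads can be read. ALDH1A3-AS1, a long noncoding RNA on the opposite strand, overlaps 1715 bases (32.15%) of the exons of ALDH1A3, and 37.5% of the 100-base windows of the ALDH1A3 canonical transcript lie in it. The strand setting of the counting is not given in the sources used here, so reads of the pair cannot be told apart in these bases. ALDH1A3-AS1 is not analysed here, since no symbol in the table carries its name.

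ALDH1A1 (ENSG00000165092, chr9:72900671-73080442, minus strand), a cytosolic retinal dehydrogenase widely used as a stem cell marker, moved the other way. Its counts were 207, 197 and 189 in CBX8 KO and 114, 104 and 102 in WT CBX8 re-expression, or 26.1, 23.4 and 24.2 CPM against 13.4, 11.9 and 12.1. Every re-expression library lay below every knockout library. The mean fell from 24.6 ± 1.40 to 12.5 ± 0.812 CPM, SD over 3 libraries each, which is 0.508 of the knockout level (95% interval 0.437 to 0.591). The log2 fold change was -0.98 (SE 0.106, adjusted p = 2.08e-07), and only 47 of the 14461 genes had a larger fall. None of its 100-base windows occurs in another annotated gene.

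ALDH1A2 (ENSG00000128918), the retinal dehydrogenase that makes most retinoic acid in the embryo, had 1, 0 and 0 counts in CBX8 KO and 0, 1 and 0 in WT CBX8 re-expression. It did not pass the filter on low counts and was not tested. A difference in ALDH1A2 was not detectable at this depth.

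The expressed retinal dehydrogenases therefore changed in opposite directions. Per kilobase of annotated exon, ALDH1A3 and ALDH1A1 overlapped in the knockout libraries, at 7.90 ± 0.412 and 8.65 ± 0.493 CPM per kilobase. In the re-expression libraries they stood apart, at 10.6 ± 0.298 and 4.39 ± 0.286. The ratio of ALDH1A3 to ALDH1A1 was 0.810, 1.00 and 0.938 in CBX8 KO and 2.31, 2.46 and 2.45 in WT CBX8 re-expression. Their sum was 16.6 ± 0.0846 and 14.9 ± 0.582 CPM per kilobase. The ratio and the sum were chosen after the values were seen and are given with no test. With the length of the canonical transcript in place of the union of exons, the mean ratio was 1.04 and 2.73.

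**Figure D2:**
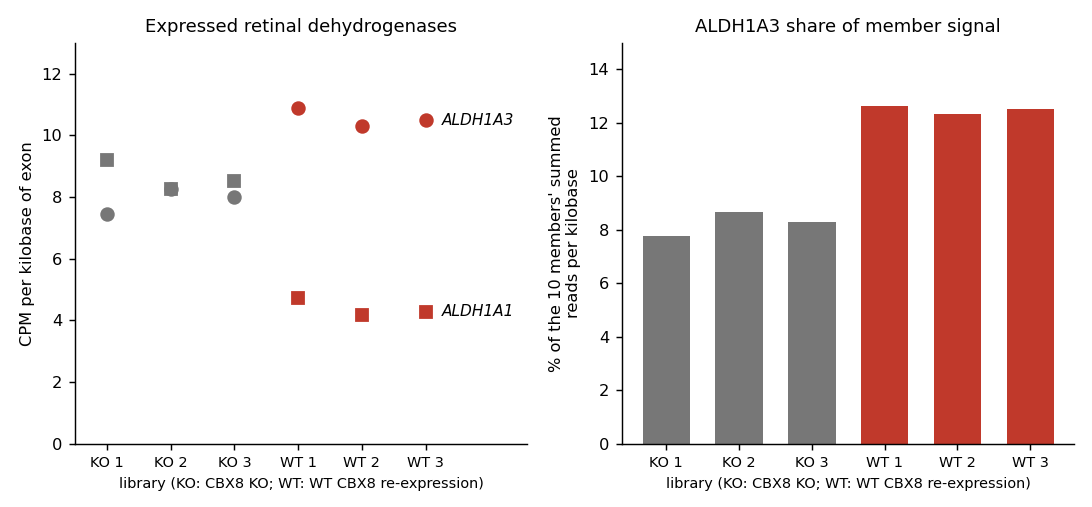
Left, CPM per kilobase of exon of ALDH1A3 (circles) and ALDH1A1 (squares) in each library, which coincide in CBX8 KO replicate 2 and separate in all 3 re-expression libraries. Right, the share of ALDH1A3 in the summed reads per kilobase of the 10 members, which lies between 7.78% and 8.65% in CBX8 KO and between 12.3% and 12.6% in WT CBX8 re-expression.

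As a share within the family, which needs no scaling between libraries, ALDH1A3 held 7.78%, 8.65% and 8.29% of the summed counts per kilobase (union of exons) of the 10 members in CBX8 KO. In WT CBX8 re-expression it held 12.6%, 12.3% and 12.5%. The groups did not overlap, and the mean share differed by 4.26 percentage points (8.24 ± 0.435% against 12.5 ± 0.138%, SD, n = 3 each). An exact permutation test, two-sided, gave p = 0.1, the smallest value that 3 libraries against 3 allow, so the design cannot reach 0.05 for this measure. ALDH1A1's share went from 9.03 ± 0.516% to 5.20 ± 0.241% and that of ALDH3A1 from 14.6 ± 0.752% to 9.83 ± 1.09%. A share also depends on the other members, so falls in some raise the shares of the rest. The share of ALDH1B1, which was not called (log2 fold change 0.02), went from 18.6 ± 1.78% to 21.5 ± 0.784%. The gain in share of ALDH1A3 is therefore not a measure of its own change alone. Over the union of exons, ALDH18A1 held the highest share in both groups, at 31.0 ± 1.20% and 32.6 ± 1.40%. Over the canonical transcript, ALDH3A2 did, at 32.3 ± 0.647% and 32.2 ± 0.713%, with ALDH18A1 at 19.4 ± 0.685% and 21.2 ± 1.23%.

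The sequence before the RefSeq start of ALDH1A3 and ALDH1A1 also differs, and is shown because these members of close protein sequence moved oppositely. Both runs lie inside the gene spans given above. Annotated starts further upstream therefore exist, and the sequence before them was not searched. The runs are the 250 bases before the RefSeq start (GRCh38.p14), written along the gene, with capitals for the CCAAT box (CCAAT) and the GC box (GGGCGG, on either strand).
ALDH1A3 (chr15:100879581-100879830, plus strand): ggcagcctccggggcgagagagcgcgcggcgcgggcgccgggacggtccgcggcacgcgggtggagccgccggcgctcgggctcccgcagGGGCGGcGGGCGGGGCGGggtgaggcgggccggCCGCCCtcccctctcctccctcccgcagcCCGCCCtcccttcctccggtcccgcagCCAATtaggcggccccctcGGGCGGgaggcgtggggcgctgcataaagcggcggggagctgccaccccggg
ALDH1A1 (chr9:72953054-72953303, minus strand): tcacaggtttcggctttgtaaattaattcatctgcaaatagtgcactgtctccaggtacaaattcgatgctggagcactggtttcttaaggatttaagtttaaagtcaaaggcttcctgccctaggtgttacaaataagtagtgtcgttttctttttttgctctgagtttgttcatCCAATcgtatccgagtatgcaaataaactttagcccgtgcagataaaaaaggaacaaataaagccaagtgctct
The ALDH1A3 run was 82.4% G or C with 38 CpG sites, and that of ALDH1A1 38.4% with 6 CpG sites, against medians of 58.0% and 11 over 35116 RefSeq promoters. ALDH1A3 had 6 GC boxes, 4 forward and 2 reverse, of which 2 overlap by 1 base, and ALDH1A1 had none. Each had 1 CCAAT box, 71 and 74 bases before the start. Of all promoters, 42.64% held a GC box and 32.01% a CCAAT box. Neither run held TATAAA, TGACNNNGC (the antioxidant response core) or AGGTCA (a binding motif of retinoic acid receptors), which 10.72%, 10.91% and 12.08% of all promoters held. Both strands were searched, and a match is a match of letters only. Of the other members, 6 had an entry in the promoter table. ALDH1A2, which was not tested, had 72.8% G or C, 33 CpG sites and 2 GC boxes. Among members not called, ALDH7A1 had 3 GC boxes, ALDH1B1 2, ALDH4A1 1 and ALDH18A1 none. ALDH3A2, which fell, also had none. Whether promoter sequence bears on the changes was not tested.

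Both ALDH3A members were lower with CBX8. ALDH3A1 (ENSG00000108602, chr17:19737984-19748943, minus strand), which oxidises aromatic and medium-chain aldehydes and is best known from the cornea, had 422, 435 and 450 counts in CBX8 KO and 305, 244 and 277 in WT CBX8 re-expression. The CPM values were 53.3, 51.7 and 57.6 against 35.8, 27.9 and 33.0, with no overlap. The mean fell from 54.2 ± 3.06 to 32.2 ± 4.04 CPM, SD over 3 libraries each, which is 0.595 of the knockout level, with a log2 fold change of -0.75 (SE 0.086, adjusted p = 5.02e-07). A larger fall was seen in 122 genes. ALDH3A2 (ENSG00000072210, chr17:19648136-19685760, plus strand), the fatty aldehyde dehydrogenase of the endoplasmic reticulum, neighbours it on chromosome 17. Its counts, 1578, 1759 and 1628 against 1580, 1460 and 1429, were 199, 209 and 208 against 186, 167 and 170 CPM. The groups did not overlap on the CPM scale, although their counts did. The fall was to 0.848 of the knockout level (95% interval 0.787 to 0.912), with a log2 fold change of -0.24 (SE 0.052, adjusted p = 0.00215). Whether these 2 falls differ was not tested, but their 95% intervals on the log2 scale, -0.93 to -0.57 and -0.34 to -0.13, do not overlap.

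The acetaldehyde dehydrogenases of the mitochondrion showed no call. ALDH2 had 11.2, 12.6 and 13.3 CPM in CBX8 KO and 13.6, 12.2 and 13.6 in WT CBX8 re-expression, and its log2 fold change was 0.09 (95% interval -0.16 to 0.33). ALDH1B1 had 61.7, 52.0 and 53.2 CPM against 55.4, 56.3 and 57.7, and its log2 fold change was 0.02 (-0.12 to 0.17). Both sets of libraries overlapped. The intervals include rises of up to 1.26-fold for ALDH2 and 1.12-fold for ALDH1B1. Of the 100-base windows of ALDH2, 6.35% occur in other annotated genes, among them an overlapping protein-coding gene on the same strand. ALDH1B1 has no such window.

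The 3 members of amino acid metabolism were not called either. ALDH18A1 (pyrroline-5-carboxylate synthase, the entry to proline synthesis from glutamate) had 108, 116 and 112 CPM in CBX8 KO and 103, 107 and 101 in WT CBX8 re-expression. Its libraries did not overlap, but the log2 fold change of -0.11 (SE 0.054) had an adjusted p of 0.20, with 0.132 to 0.565 across the alternatives. ALDH4A1, which carries the reverse route from proline to glutamate, was the lowest tested member by counts, with 46 to 65 per library. Its log2 fold change was -0.20 (95% interval -0.55 to 0.15). ALDH7A1, the antiquitin enzyme of lysine breakdown, had 19.9, 18.8 and 18.0 CPM against 20.6, 20.3 and 16.5, and a log2 fold change of 0.02 (-0.20 to 0.24). ALDH7A1 shares 1.37% of its 100-base windows with its pseudogene ALDH7A1P1.

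Of the 9 other human aldehyde dehydrogenases, 5 were tested. ALDH5A1, the succinic semialdehyde dehydrogenase of GABA breakdown, rose from 7.64 ± 0.801 to 10.5 ± 1.20 CPM (SD, n = 3 each), with 56, 72 and 57 counts in CBX8 KO and 98, 94 and 77 in WT CBX8 re-expression. Its log2 fold change was 0.45 (SE 0.146, adjusted p = 0.0387), but it stayed past the threshold in only 9 of 18 alternatives, with adjusted p from 0.0206 to 0.267. The call was lost when CBX8 KO replicate 1 (adjusted p = 0.137) or replicate 3 (0.109) was left out, and likewise for re-expression replicate 1 (0.157) or replicate 2 (0.123). The log2 fold changes of ALDH16A1, ALDH6A1, ALDH3B1 and ALDH9A1 were -0.29, -0.17, -0.01 and 0.01, and none was called by edgeR, DESeq2 or limma voom. ALDH9A1, of carnitine synthesis, and ALDH3B1, which acts on lipid aldehydes, changed sign under some alternatives. None of these 5 was called lower, and none was lower at an unadjusted p under 0.05. ALDH1L1, ALDH1L2, ALDH3B2 and ALDH8A1 had at most 3 counts in any library and were not tested. ALDH5A1 had a log2 fold change close to that of ALDH1A3, at a mean of 10.5 against 56.3 CPM with CBX8.

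**Figure D3:**
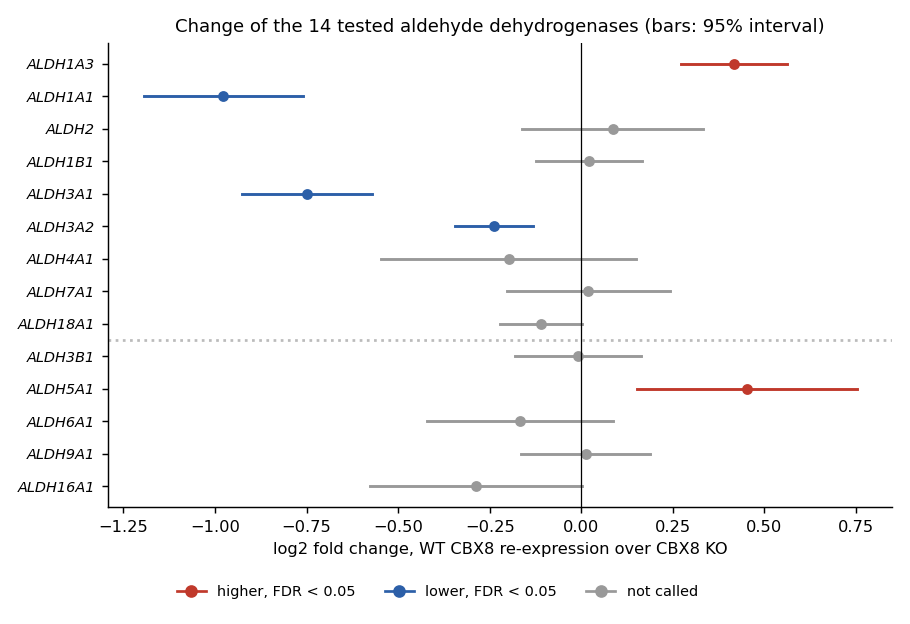
Log2 fold change (WT CBX8 re-expression over CBX8 KO) of the 14 aldehyde dehydrogenases tested, with 95% intervals, the 9 members above the dotted line and 5 others below it. The intervals of ALDH1A3 and ALDH5A1 lie above 0 and those of ALDH1A1, ALDH3A1 and ALDH3A2 below it, and the other 9 include 0.

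Placed by level per kilobase of the union of exons, ALDH18A1 stood highest in CBX8 KO, at 29.8 ± 1.10 CPM per kilobase, followed by ALDH1B1 at 17.9 ± 1.69. Then came ALDH9A1 (15.1 ± 0.835), ALDH3A1 (13.97 ± 0.789) and ALDH3A2 (13.4 ± 0.359), where each overlapped the next. ALDH1A1 (8.65) and ALDH1A3 (7.90) came sixth and seventh of the 19 and overlapped each other, above ALDH3B1 (5.47). ALDH16A1, ALDH4A1 and ALDH6A1 overlapped, with means between 1.96 and 2.38, and ALDH2, ALDH7A1 and ALDH5A1 were lowest of those tested. In WT CBX8 re-expression, ALDH1A3 ranked 5 and stood above ALDH3A1 in every library, and ALDH1A1 ranked 8, below ALDH3B1. ALDH3A2 and ALDH1A3 overlapped there, at 11.4 ± 0.659 and 10.6 ± 0.298.

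The choice of length moved this order for some members. With the canonical transcript, ALDH3A2 came first in both groups, at 55.5 ± 1.49 and 47.1 ± 2.73 CPM per kilobase, since its union of exons spans 15331 bases and its canonical transcript 3703. ALDH1A3 then ranked 7 in CBX8 KO, where ALDH3B1, ALDH1A3 and ALDH1A1 overlapped, and 6 in WT CBX8 re-expression. ALDH7A1 moved from rank 13 to 9 in CBX8 KO and from 14 to 9 in WT CBX8 re-expression. The groups are compared per gene, so no fold change depends on the length.

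**Figure D4:**
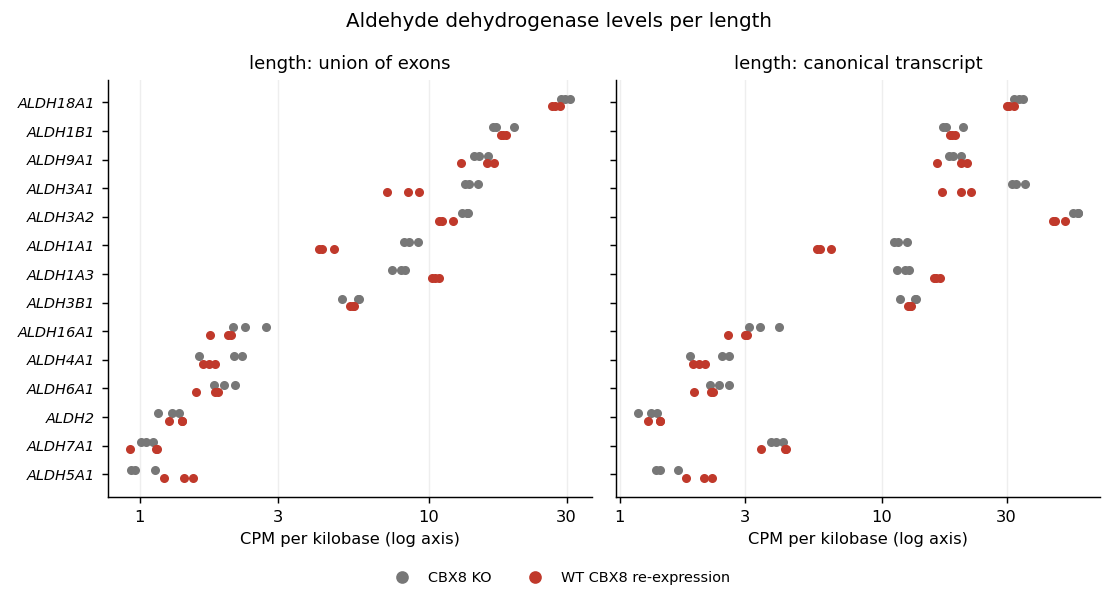
CPM per kilobase (log axes) of the 14 tested aldehyde dehydrogenases in each library, ordered by the CBX8 KO mean over the union of exons, with the union of exons on the left and the canonical transcript on the right. In the re-expression libraries ALDH1A3 lies above ALDH1A1 and ALDH3B1 with either length, and ALDH3A2 and ALDH7A1 lie higher in the order with the canonical transcript.

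Around the ALDH1A enzymes, the retinoic acid pathway was read from a list of 43 genes for uptake, conversion, breakdown, receptors and targets, without the aldehyde dehydrogenases themselves. Of these, 24 did not pass the filter, 12 of them with no count in any library, and 19 were tested, of which 8 fell and 0 rose, against 6.63% lower and 6.23% higher over all genes. Of the 19, 15 had a negative log2 fold change, and the median was -0.16, against 0.005 over all genes. TGM2 and PPARD were higher at an unadjusted p under 0.05, and DESeq2 and limma voom also called 0 as higher. DESeq2 called 6 lower and limma voom 8.

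Of the 11 genes of retinoid uptake, binding and storage, 1 was tested (STRA6) and fell, and of the 5 tested genes that interconvert retinol and retinal, 3 fell (RDH10, AKR1B10 and RDH11). STRA6, the membrane receptor that takes up retinol from its carrier, had 549, 607 and 593 counts in CBX8 KO and 357, 343 and 358 in WT CBX8 re-expression. The mean went down from 72.4 ± 3.31 to 41.3 ± 1.82 CPM (SD, n = 3 each), and the log2 fold change was -0.81 (SE 0.067, adjusted p = 2.12e-09). RDH10, which oxidises retinol to retinal and so supplies the substrate of the ALDH1A enzymes, had 709, 642 and 594 counts against 327, 341 and 339. The mean of RDH10 fell from 80.6 ± 7.70 to 39.2 ± 0.995 CPM, with a log2 fold change of -1.04 (SE 0.072, adjusted p = 6.03e-11). AKR1B10, an aldo-keto reductase that turns retinal back into retinol, fell from 202 ± 8.67 to 112 ± 3.85 CPM, with a log2 fold change of -0.85 (SE 0.052). RDH11 had a log2 fold change of -0.21 and passed the threshold narrowly (adjusted p = 0.0436). It lost the call in 12 of 18 alternatives, including each of the 6 that leave out 1 library (adjusted p from 0.0604 to 0.137). RDH14 and DHRS4 were tested and not called.

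CYP26B1, which breaks retinoic acid down, had 732, 682 and 670 counts in CBX8 KO and 520, 464 and 534 in WT CBX8 re-expression, and fell with a log2 fold change of -0.54 (SE 0.069, adjusted p = 2.22e-06). CYP26A1 was at 0 in all libraries and CYP26C1 had 1 count over the 6 libraries. Among the receptors, RARB fell from 84.5 ± 6.36 to 60.8 ± 5.32 CPM (SD, n = 3 each), with 703, 737 and 603 counts against 549, 479 and 531 and a log2 fold change of -0.48 (SE 0.069, adjusted p = 1.85e-05). RARA and RARG had log2 fold changes of -0.15 and -0.16 and RXRA of 0.01, none of them called. RXRB was listed at 0 in all libraries, as was RDH13, and both have near-identical copies on alternate contigs of the hg38 assembly, 5 and 9 in number. What this does to their counts was not tested.

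NRIP1, a corepressor recruited by liganded receptors, had a log2 fold change of -0.20 (adjusted p = 0.0441), with overlapping libraries. Its call was lost in 9 of 18 alternatives, among them those without CBX8 KO replicate 1 or 2 (adjusted p = 0.209 and 0.0755) and those without re-expression replicate 1 or 2 (0.258 and 0.117). Of the target genes, RARRES1 is named for its response to retinoic acid receptors. It went from 14.1 ± 1.39 down to 7.96 ± 2.06 CPM, SD over 3 libraries each. Its log2 fold change was -0.82 (SE 0.152, adjusted p = 0.000423). MFSD1, on the opposite strand with 379 to 506 counts per library, overlaps 292 bases (14.39%) of the RARRES1 exons. With the strand setting not given, reads of these genes cannot be told apart in these bases. TGM2 had 16, 18 and 13 counts against 27, 27 and 29 and a log2 fold change of 0.73, which missed the threshold (adjusted p = 0.0724). RARRES3, MEIS1 and MEIS2 were not called. The levels of retinal and retinoic acid were not measured.

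The promoter of RARB is shown because it carries the classic retinoic acid response element and RARB was among the genes that fell. In the first of its 4 RefSeq entries (250 bases before the start, GRCh38.p14), the capitals mark GTTCA, any 6 bases and GTTCA, a pair of receptor motifs, whose first base lies 52 bases before the start.
RARB (chr3:25428013-25428262, plus strand): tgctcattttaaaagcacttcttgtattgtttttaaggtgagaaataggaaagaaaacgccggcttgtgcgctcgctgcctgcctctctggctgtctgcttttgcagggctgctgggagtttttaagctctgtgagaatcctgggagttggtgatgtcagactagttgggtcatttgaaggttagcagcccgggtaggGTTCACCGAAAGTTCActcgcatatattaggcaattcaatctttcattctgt
The pair was found in 17 of 35116 promoters, searched on both strands. It was not found in the first RefSeq entries of STRA6, CYP26B1, RARRES1, ALDH1A1 or ALDH1A3. The spelling searched is that of the RARB element itself, so the match in RARB is no test. Pairs spelled otherwise are missed, so the counts do not show how rare such elements are. STRA6 held the receptor motif AGGTCA 2 times on the reverse strand, 180 and 22 bases before the start. The entries of RARB, CYP26B1 and RARRES1 held no AGGTCA.

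**Figure D5:**
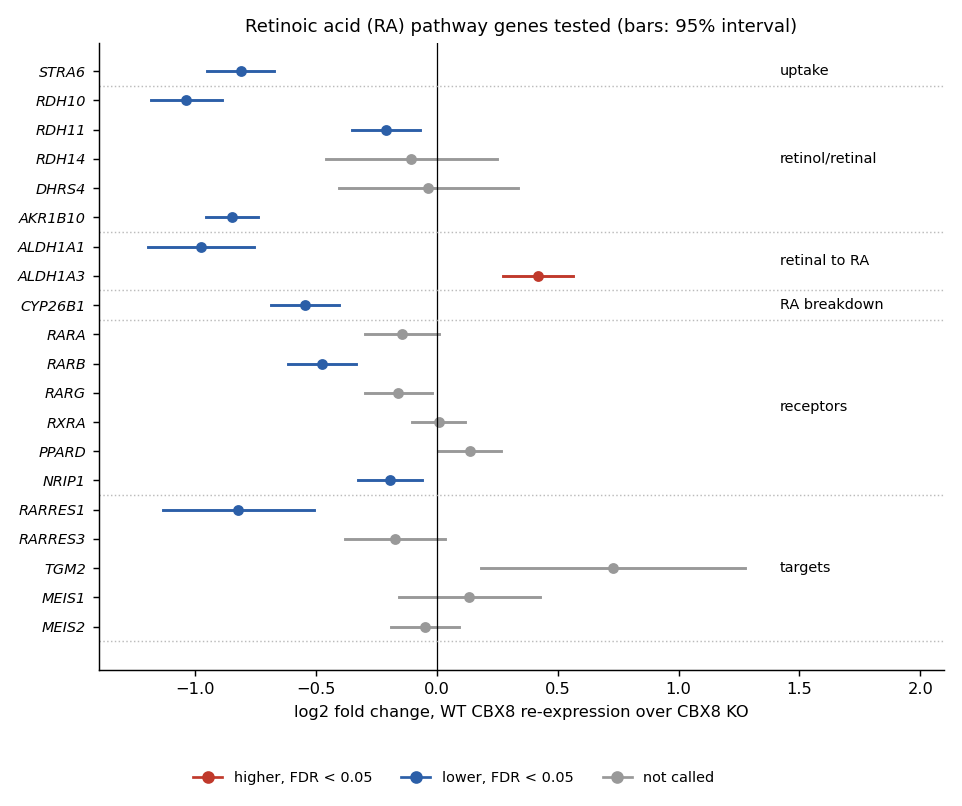
Log2 fold change (WT CBX8 re-expression over CBX8 KO) with 95% intervals of 18 of the 19 tested retinoic acid pathway genes and of ALDH1A1 and ALDH1A3, grouped by step. STRA6, RDH10, AKR1B10, ALDH1A1 and RARRES1 lie below -0.8, and ALDH1A3 is the only gene called higher.

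Enzymes that make, share or use the substrates of the other members were read from 4 lists of 39 genes, of which 24 were tested, 1 rose (AOX1) and 2 fell (SORD and GLUL). These 3 calls are 12.5% of the genes tested, near the 12.9% over all genes, so the count is no result about the list. AOX1, an oxidase that also turns aldehydes into acids, had 60, 68 and 63 counts in CBX8 KO and 99, 118 and 98 in WT CBX8 re-expression, and rose with a log2 fold change of 0.63 (SE 0.134, adjusted p = 0.00173). SORD, the sorbitol dehydrogenase, went from 82.4 ± 0.963 down to 63.5 ± 5.16 CPM, SD over 3 libraries each. Its log2 fold change was -0.38 (adjusted p = 0.000127). Of its 100-base windows, 25.9% are also found in other annotated genes, among them the pseudogene SORD2P. SORD also has 1 copy on the alternate contigs of hg38, at 96.91% of its bases. What these copies do to its counts was not tested. GLUL, which makes glutamine from glutamate, had a log2 fold change of -0.44 (adjusted p = 0.0342), and lost the call in 8 of 18 alternatives, among them those without CBX8 KO replicate 1 or 2 (adjusted p = 0.14 and 0.133) and those without re-expression replicate 1 or 2 (0.0724 and 0.189).

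By list, 8 genes of alcohol and aldehyde conversion were tested, with AOX1 and SORD called. Of 8 genes of proline and glutamate metabolism, GLUL was called. Of 3 genes of lysine breakdown and 6 genes that yield fatty aldehydes, 0 were called, with 1 and 2 at an unadjusted p under 0.05, against 3662 of 14461 over all genes. These lists are too short to set their shares apart from that background. Over the 24 genes, DESeq2 called 1 higher and 1 lower, and limma voom 1 and 2. The median log2 fold change of the 24 was -0.03.

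The genes whose pattern over the 6 libraries was most like that of ALDH1A3 were ATOH8, FSTL1, CCDC24, DNHD1 and CSRNP1, of 13587 genes compared. Likeness was the root mean square difference of log2 CPM after centring each gene on its own mean, and it ran from 0.027 for ATOH8 to 0.043 for CSRNP1. FSTL1, a secreted glycoprotein, was the most abundant of them, at 423 ± 17.9 CPM in CBX8 KO and 564 ± 17.4 in WT CBX8 re-expression (SD, n = 3 each). The points share 6 libraries in 2 groups, so any gene with a rise of this size and little spread comes close.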

How the data were processed

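RNA was read from 6 libraries of the T98G CBX8 KO line, grouped by their titles. The authors enriched poly(A) RNA, sequenced 100 bp paired ends on a BGISEQ-500, trimmed with Trimmomatic and aligned to hg38 with HISAT2. The deposited values per gene symbol are named a counts matrix and were assumed to be raw counts. The counting program, its annotation, strand setting and all versions are not given in the sources used here. The table holds no coordinates and 0 columns of other samples.

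Analysis used R 4.3.3 and edgeR 4.0.16. Low counts were removed with filterByExpr, libraries were scaled by TMM, and the groups were compared with the quasi-likelihood test (glmQLFit, then glmQLFTest, default settings, no covariate). Adjusted p-values are Benjamini-Hochberg over all genes tested, with FDR < 0.05 as in the study's methods. SE is the absolute log2 fold change over the square root of F. The test was checked on simulated counts. Intervals cover 95% and assume this model. Reads have no molecular identifiers, and depth speaks for counting error alone. Replicate pairs of a group differed by more than sampling noise (chi-square per degree of freedom 1.96 to 2.90), so none was counted as 1 library.

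The members and gene lists were chosen with earlier results of these data known. Named genes are all members, the other aldehyde dehydrogenases with a count, the called pathway genes of largest change (at most 8 and 6), CBX8 and the 5 genes most like ALDH1A3. Of the retinoic acid pathway list, 1 gene, counted among those tested and not called, is not reported here by itself. TGM2, PPARD and other genes that were not called are named beyond this rule, after their values were seen. The alternatives used other scaling (RLE, upper quartile, library size), other filters and thresholds, DESeq2 1.42.0, limma 3.58.1 voom, edgeR's likelihood ratio test and quasi-likelihood fit with legacy set to FALSE, a block for replicate number, and leaving out single libraries. A correction for GC content and length, available for 87.8% of genes, was chosen after seeing the data.

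All 19 family symbols matched GENCODE 44. Shared windows of 100 bases were counted on canonical transcripts, and alternate copies were sought with minimap2 2.31-r1302 on 261 alternate contigs (at least 95% of bases), where no aldehyde dehydrogenase had one. Promoters are from RefSeq (GRCh38.p14). Protein identities come from global BLOSUM62 alignment of translated GENCODE coding sequences with Biopython 1.88, over aligned residues.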

Additional observations from a re-analysis of the deposited data

How the results depend on the processing

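The 9 tested members gave 162 log2 fold changes over 18 alternatives, of which 157 kept their direction and side of the threshold and 5 changed sign. With 1 library left out, ALDH1B1 lay between -0.0267 and 0.0998, below 0 without CBX8 KO replicate 2 or 3. ALDH7A1 lay between -0.0375 and 0.1095, below 0 without CBX8 KO replicate 3 or re-expression replicate 1 or 2. Among other genes, ALDH3B1 went to 0.0041 under upper quartile scaling, 0.0466 under library size scaling, and lay between -0.0708 and 0.0257 with 1 library left out. ALDH9A1 went to -0.0014 with no filter on low counts and lay between -0.0669 and 0.1138 with 1 library left out. These 4 genes were not called in any alternative. Of 288 fits of 16 other named genes, 241 kept direction and side, 38 missed the threshold and 9 are the sign changes of ALDH3B1 and ALDH9A1.

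The genes called higher numbered 1400 under library size scaling, 421 with DESeq2, 489 at FDR < 0.01 and 593 to 792 with 1 library left out, against 901. Those called lower numbered 592 under library size scaling, 569 at FDR < 0.01 and 635 to 851 with 1 library left out, against 959. Of the other aldehyde dehydrogenases, 0 were called higher (ALDH5A1 lost) with no filter, DESeq2, limma voom, the replicate block or FDR < 0.01, and 0 to 1 with 1 library left out. Library size scaling called 1 retinoic acid pathway gene higher and, of the partner enzymes, 2 higher and 1 lower. Partner enzymes called lower numbered 4 under RLE scaling, 1 with DESeq2, 1 at FDR < 0.01 and 1 to 3 with 1 library left out. Retinoic acid pathway genes called lower numbered 6 to 7 with 1 library left out. The ALDH1A3 share differed by 3.09 percentage points over all 19 aldehyde dehydrogenases and by 4.03 to 4.46 with 1 library left out. Except where fewer samples or a stricter threshold shows it, the cause was not tested.

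The replicate numbers do not pair the samples (correlations of deviations -0.11, -0.05 and -0.03 over 13588 genes). With the replicate block, 739 genes were higher and 766 lower, 1 member was higher and 3 lower, 6 retinoic acid pathway genes were lower, and 1 partner enzyme was higher and 1 lower. Depth limits ALDH1A2 and 4 other aldehyde dehydrogenases, which had at most 3 counts in a library.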
